A study of Mus musculus with 12 samples.

Results

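The core circadian clock of the liver was described here through 10 genes chosen by name for their place in the clock, Arntl, Clock, Npas2, Per1, Per2, Per3, Cry1, Cry2, Nr1d1 and Nr1d2. All 10 were measured, among 14188 protein-coding genes in all, and they accounted for 19 of 29883 listed transcripts. Liver RNA of 6 mice given PZH and of 6 control mice was sequenced, and the question addressed here is how the clock genes differed between these groups. Mice of both groups were male, 6 weeks old at the start, of a strain given as C57BL/8 in the labels and as C57BL/6J in the methods of the study. Mice of both groups also received CCl4, a solvent that injures hepatocytes, mixed with corn oil at 10 µl/g into the peritoneum 2 times per week, and all were killed in week 8. The PZH group was dosed by stomach tube 1 time per day with 0.25 mg/g of PZH (Pien Tze Huang), a compound remedy of Chinese medicine, and the control group had water by the same route. No group without CCl4 was analysed here, so the levels of an uninjured liver are not part of the comparison.

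The circadian clock is a loop of transcription factors found in nearly every cell. ARNTL (also called BMAL1) pairs with CLOCK or its relative NPAS2 and switches on genes through E-box sequences, among them the Per and Cry genes, whose proteins then hold back that pair. The nuclear receptors NR1D1 and NR1D2 (REV-ERB alpha and beta) repress Arntl and close a further loop, and in the liver these rhythms follow light, meals and hormones. The RNA of most clock genes therefore rises and falls over the day. Each mouse gave 1 sample and the hour of killing is not given in the sources used here, so a difference in level and a difference in phase cannot be told apart.

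Of the 10 clock genes, 4 were higher in the PZH group and 2 were lower. Per3, Nr1d1, Nr1d2 and Cry2 were the higher ones, and Cry1 and Arntl were the lower ones, while Clock, Npas2, Per1 and Per2 did not pass the test. A gene was called here at an adjusted p below 0.05 in limma on log2(FPKM + 1), with Benjamini-Hochberg adjustment over all genes. FPKM, the unit the authors deposited, is the number of fragments scaled to the length of the transcript and the size of the library, and a gene value is the sum over its protein-coding transcripts. Among all genes tested, 12.7% were called higher in the PZH group and 32.1% lower. With the study's rule of a 2-fold change on this scale and an unadjusted p below 0.05, 2 clock genes (Per3 and Nr1d1) were higher and 1 (Cry1) was lower, against 1.52% and 2.5% of all genes. With each mouse divided by a median-ratio scale factor, Cry1 had a difference of -0.95 and missed the 2-fold limit. The values of the groups did not overlap for Per3, Nr1d1 and Nr1d2, all higher with PZH, as for 6.46% of all genes, nor for Cry1, lower with PZH, as for 17.9% of all genes. In whole liver, fewer cells of a type and less RNA per cell cannot be told apart.

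The median difference of all genes was -0.11 on the log2 scale, and it was -0.0010 once each mouse was divided by a median-ratio scale factor, which ran from 0.875 to 1.005 in the PZH mice and from 1.03 to 1.11 in the control mice. With those factors 2807 genes were called higher and 2739 lower, where 1798 were higher and 4560 lower in the values as deposited. The 6 clock genes called were called in the same direction under both scalings. Relative to the median gene the difference was 1.99 for Per3, 1.22 for Nr1d1, 0.81 for Nr1d2, 0.57 for Cry2, -0.97 for Cry1 and -0.64 for Arntl.

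**Figure D1:**
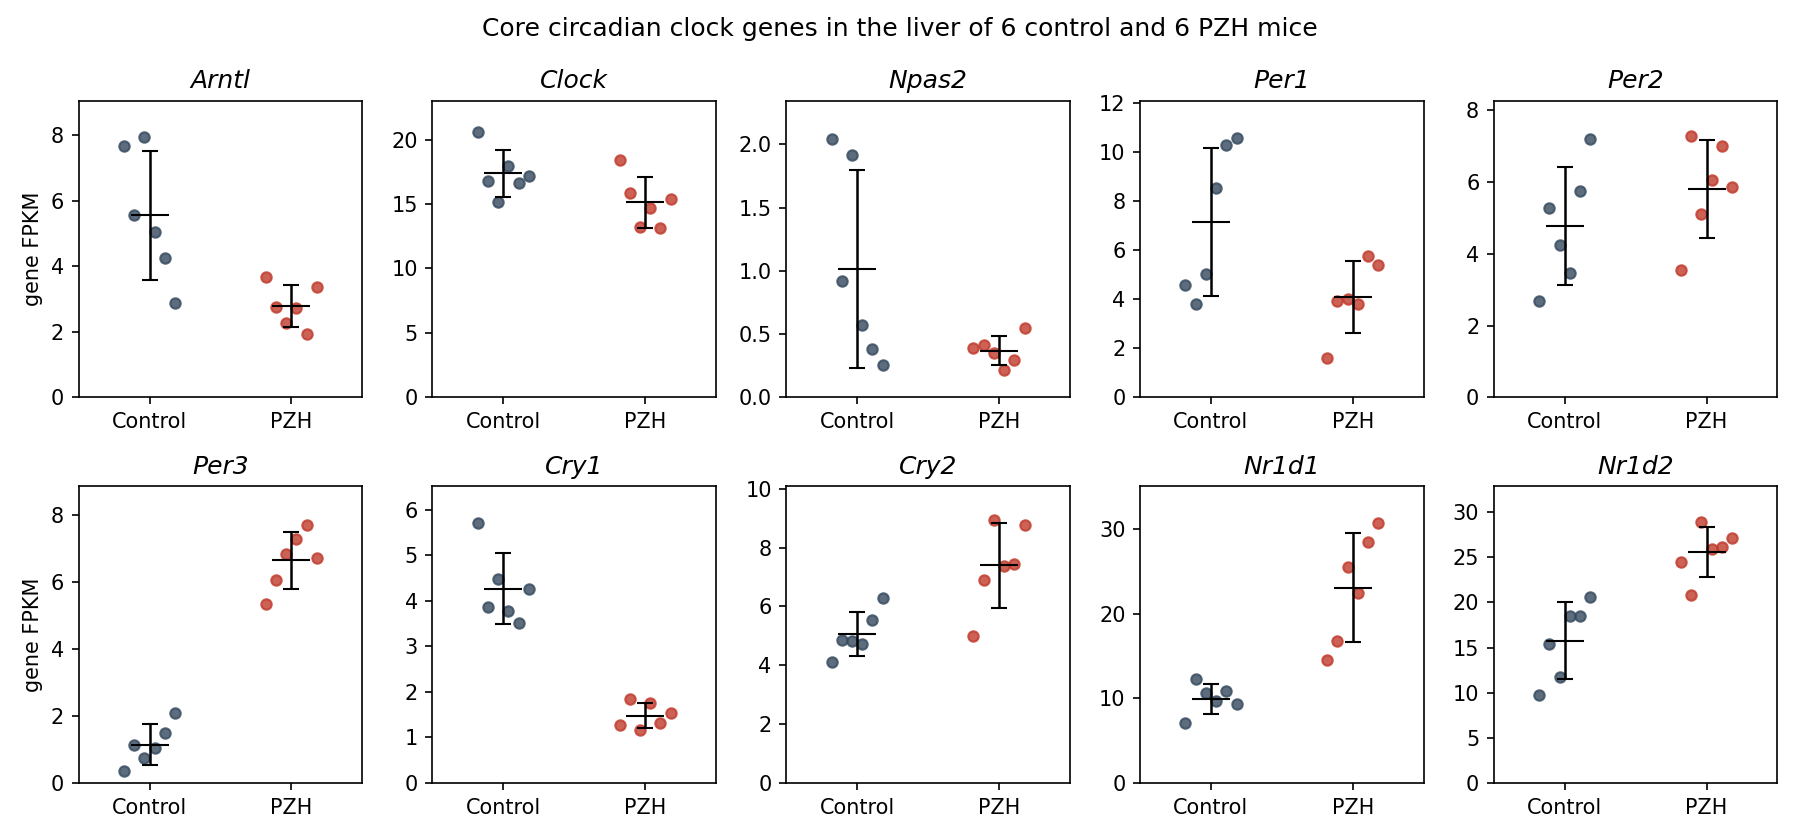
Gene FPKM of the 10 core clock genes, with 1 point per mouse, 6 control mice in grey and 6 PZH mice in red; the black lines are the mean and the SD and each axis starts at 0. The points of the groups do not overlap for Per3, Cry1, Nr1d1 and Nr1d2, and the control points of Npas2 spread from 0.253 to 2.04.

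Arntl encodes the partner without which the activating pair does not form. Its level ran from 1.95 to 3.67 FPKM in the PZH mice (median 2.75) and from 2.87 to 7.94 FPKM in the control mice (median 5.31). The groups overlapped through Control 6, the lowest control, which lay below PZH 1 and PZH 6, while the other 4 PZH mice lay below every control. Mean Arntl FPKM was 2.79 ± 0.645 (SD, n = 6) with PZH and 5.56 ± 1.96 (SD, n = 6) in controls, 1.99-fold higher in controls. Arntl fell by 0.75 on the log2 scale (SE 0.19, limma adjusted p = 0.0065), and the exact two-sided permutation test over mice gave p = 0.0065.

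Clock encodes the usual partner of ARNTL and had the highest level of the 10 genes in the control group. The PZH mice ran from 13.1 to 18.4 FPKM (median 15.1) and the control mice from 15.2 to 20.6 FPKM (median 17.0). The ranges overlapped, with PZH 3, PZH 4 and PZH 5 below every control and PZH 1 above 5 of the 6. The difference was -0.19 with a 95% interval from -0.39 to 0.0042 and did not pass the test (limma adjusted p = 0.103). Without PZH 1 it was -0.25 and passed (limma adjusted p = 0.026), and with median-ratio factors it was -0.010 (limma adjusted p = 0.953), the ends of the range of its adjusted p over all alternatives.

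Npas2 encodes the relative of CLOCK that can take its place beside ARNTL. It was the lowest of the 10 genes in both groups, with 0.213 to 0.552 FPKM in the PZH mice (median 0.373) and 0.253 to 2.04 FPKM in the control mice (median 0.744). Control 1 and Control 3 stood at 2.04 and 1.92 FPKM, Control 2 at 0.916, and the other 3 controls lay near or within the range of the PZH mice. The difference of -0.47, with a 95% interval from -0.92 to -0.03, did not pass after adjustment (limma adjusted p = 0.0777). It passed without Control 5 (-0.56, limma adjusted p = 0.047) and without Control 6 (-0.59, limma adjusted p = 0.028), and over all alternatives its adjusted p ran from 0.028 to 0.160. The log2(FPKM + 1) scale understates the change of a gene this low, and the difference was -0.96 with a pseudocount of 0.1 and -0.77 with equal sums on the TPM scale, neither of which passed.

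The 3 Per genes, whose proteins enter the complex that holds back the activating pair, differed from each other. Per3 had the largest difference of the 10 clock genes. The PZH mice ran from 5.34 to 7.70 FPKM (median 6.78) and the control mice from 0.346 to 2.09 FPKM (median 1.08). No PZH mouse came near the highest control, Control 6, and the lowest PZH mouse was PZH 1. Mean Per3 FPKM was 6.66 ± 0.851 (SD, n = 6) with PZH and 1.14 ± 0.606 (SD, n = 6) in controls, a 5.84-fold higher mean. On the log2 scale Per3 rose by 1.88 (SE 0.17, limma adjusted p = 1.3e-05), and the exact two-sided permutation test gave p = 0.0022, the smallest that all labellings of 12 mice allow.

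Per1, a Per gene that responds fast to hormonal and other outside cues, ran from 1.60 to 5.78 FPKM in the PZH mice (median 3.97) and from 3.83 to 10.5 FPKM in the control mice (median 6.78). Control 4, Control 5 and Control 6 lay above every PZH mouse, and the other 3 controls lay within the range of the PZH mice. The difference of -0.65, with a 95% interval from -1.24 to -0.07, did not pass after adjustment (limma adjusted p = 0.0648). It passed without Control 2 (-0.79, limma adjusted p = 0.030) and without PZH 5 (-0.75, limma adjusted p = 0.048), over a range of adjusted p from 0.012 to 0.731. With the most abundant transcript alone the sign turned, to 0.26.

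Per2, the Per gene most needed for a stable rhythm together with Per1, ran from 3.55 to 7.28 FPKM in the PZH mice (median 5.95) and from 2.68 to 7.20 FPKM in the control mice (median 4.75). The groups overlapped over nearly their whole range, with only PZH 2 above Control 6. The difference of 0.26 had a 95% interval from -0.16 to 0.68 and did not pass the test (limma adjusted p = 0.297).

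The Cry genes, which encode the partners of the PER proteins, moved in opposite directions. Cry1 ran from 1.16 to 1.83 FPKM in the PZH mice (median 1.43) and from 3.52 to 5.70 FPKM in the control mice (median 4.06). Every PZH mouse lay below every control, with Control 1 the highest and PZH 3 the lowest. Mean Cry1 FPKM was 1.48 ± 0.274 (SD, n = 6) with PZH and 4.26 ± 0.783 (SD, n = 6) in controls, 2.89-fold higher in controls. Cry1 fell by 1.08 on the log2 scale (SE 0.10, limma adjusted p = 1.6e-05, exact two-sided permutation p = 0.0022).

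Cry2 ran from 4.98 to 8.93 FPKM in the PZH mice (median 7.41) and from 4.10 to 6.28 FPKM in the control mice (median 4.86). PZH 1, at the level of the controls, was the overlap, and the other 5 PZH mice lay above every control. Mean Cry2 FPKM was 7.40 ± 1.44 (SD, n = 6) with PZH and 5.06 ± 0.752 (SD, n = 6) in controls, a 1.46-fold higher mean. Cry2 rose by 0.46 on the log2 scale (SE 0.12, limma adjusted p = 0.0083, exact two-sided permutation p = 0.0087).

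The nuclear receptor genes of the clock were both higher with PZH. Nr1d1 ran from 14.6 to 30.8 FPKM in the PZH mice (median 24.0) and from 7.07 to 12.3 FPKM in the control mice (median 10.2). All PZH mice lay above all controls, with PZH 1 and PZH 2 nearest to them and PZH 6 the highest. Mean Nr1d1 FPKM was 23.1 ± 6.44 (SD, n = 6) with PZH and 9.98 ± 1.78 (SD, n = 6) in controls, a 2.32-fold higher mean. Nr1d1 rose by 1.11 on the log2 scale (SE 0.18, limma adjusted p = 0.00033, exact two-sided permutation p = 0.0022). Nr1d1 shares 263 of 3077 exon bases (8.55%) with Thra, a thyroid hormone receptor gene on the opposite strand, and whether counting used the strand is not given in the sources used here. Thra ran from 3.19 to 6.98 FPKM in the PZH mice and from 3.16 to 4.55 FPKM in the control mice. It moved in the same direction as Nr1d1, by 0.38 (SE 0.14, limma adjusted p = 0.041), and the part of this overlap in the Nr1d1 value was not tested. Cry2 shares 295 of 6320 exon bases (4.67%) with D930015M05Rik, and Arntl shares 33 of 7523 (0.44%) with Gm45355. Both of these lie on the opposite strand and were not among the listed genes, which come from the protein-coding values alone. Their levels are therefore not given, and their part in the Cry2 and Arntl values was not tested.

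Nr1d2 ran from 20.8 to 29.0 FPKM in the PZH mice (median 26.0) and from 9.73 to 20.6 FPKM in the control mice (median 17.0). The groups were apart by a narrow margin, between Control 6 and PZH 2, and Control 1 and Control 3 were the lowest. Mean Nr1d2 FPKM was 25.6 ± 2.75 (SD, n = 6) with PZH and 15.8 ± 4.25 (SD, n = 6) in controls, a 1.62-fold higher mean. Nr1d2 rose by 0.70 on the log2 scale (SE 0.16, limma adjusted p = 0.0032, exact two-sided permutation p = 0.0022).

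The order of the clock genes by mean FPKM differed between the groups. In the PZH group Nr1d2 stood first, followed by Nr1d1, Clock, Cry2, Per3, Per2, Per1, Arntl, Cry1 and Npas2. In this order the ranges of neighbouring genes overlapped except between Clock and Cry2, between Arntl and Cry1 and between Cry1 and Npas2. In the control group Clock stood first, followed by Nr1d2, Nr1d1, Per1, Arntl, Cry2, Per2, Cry1, Per3 and Npas2. Here only Cry1 and Per3 had ranges that did not overlap among neighbours. Per3 was thus next to last in controls and in the middle of the order with PZH.

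The spread between mice also differed from gene to gene. The SD of log2(FPKM + 1) of Npas2 was 0.12 in the mice given PZH and 0.55 in controls. For Per3 it was 0.16 with PZH and 0.41 in controls, and for Nr1d2 it was 0.16 and 0.40. Nr1d1 had the wider spread with PZH, at 0.41 against 0.25 in controls. Per1 was wide in both groups, at 0.49 and 0.55. The median SD over the 10948 genes with a mean FPKM of at least 1 was 0.20 with PZH and 0.17 in controls, and differences in spread were not tested.

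Several transcripts carried the gene values. Among all transcripts 19.7% passed the adjusted threshold in either direction, and of the 19 clock transcripts 4 were higher (Per3-201, Cry2-202, Nr1d1-201 and Nr1d2-201) and 2 were lower (Arntl-201 and Cry1-201). Cry2-201, which made up 74.9% of the Cry2 value with PZH and 78.8% in controls, did not pass (0.38, limma adjusted p = 0.071). Clock-204 did not pass either (-0.25, limma adjusted p = 0.065). Both passed in the fit of the highest transcript of each gene (limma adjusted p = 0.042 and 0.037). That fit adjusted over 14179 genes in place of 29883 transcripts. Per2, Per3, Cry1 and Nr1d1 had 1 listed transcript each. Arntl-201 made up 76.8% of the Arntl value with PZH and 90.4% in controls on average. In Control 3, however, Arntl-206 was listed at 4.03 FPKM beside 3.89 for Arntl-201, in PZH 4 it was listed at 1.82 beside 0.917, and in PZH 2 Arntl-203 was listed at 1.68 beside 1.08. Each of these was close to 0 in most other mice.

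Per1 was divided between transcripts in a way that changed from mouse to mouse. Per1-203 was listed at 8.22 FPKM in Control 5, at 8.33 in Control 6, at 2.33 in Control 1, at 2.76 in Control 2 and at 2.56 in PZH 4, and it was listed at 0 in the other 7 mice. Per1-201 was highest in Control 4, at 7.22 FPKM, where Per1-203 was listed at 0. None of the 3 Per1 transcripts passed the test, and the value given for Per1 above is their sum.

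Within each group the clock genes were compared with each other across the 6 mice on log2(FPKM + 1), as 45 pairs per group. At an unadjusted exact permutation p below 0.05, 13 pairs passed in controls and 6 with PZH, and with median-ratio factors these were 12 and 3. None of the 90 relations passed after Benjamini-Hochberg adjustment (lowest adjusted p = 0.107, exact permutation). The smallest p that 720 orders allow is 0.00139, which becomes 0.125 when it is the lowest of 90 on its own. The median absolute Pearson's r was 0.72 in controls and 0.53 with PZH, and the difference was not tested. Pairs of other genes were not counted in these mice. Neither the counts nor the medians are therefore shown to be particular to clock genes.

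Some of the clock genes ran in parallel or opposite order over the control mice. Npas2 and Nr1d2 ran in exactly opposite order over the 6 controls (r = -0.98, exact permutation p = 0.0014; rho = -1, exact permutation p = 0.0028; n = 6), and r was -0.96 without the 2 mice farthest from the Npas2 median. Arntl followed Npas2 (r = 0.95, exact permutation p = 0.0028; rho = 0.94, exact permutation p = 0.017; n = 6; r = 0.99 without the farthest 2). Arntl and Per3 ran opposite to each other (r = -0.94, exact permutation p = 0.011; rho = -0.89, exact permutation p = 0.033; n = 6; r = -0.97 without the farthest 2). Clock and Nr1d1 did not follow this order, with r = 0.11 (exact permutation p = 0.865, rho = -0.14, exact permutation p = 0.803, n = 6) between Arntl and Clock, and r = -0.19 (exact permutation p = 0.747, rho = 0.03, exact permutation p = 1, n = 6) between Arntl and Nr1d1. Without the farthest 2 mice these r were 0.89 and -0.75. Control 1 stood at one end, with the highest Npas2, Clock and Cry1 of the controls and the lowest Per2, Per3, Cry2, Nr1d1 and Nr1d2. Control 6 stood at the other end, with the lowest Arntl and Npas2 and the highest Per1, Per2, Per3, Cry2 and Nr1d2. Among the PZH mice, PZH 1 had the highest Arntl and Clock and the lowest Per1, Per2, Per3, Cry2 and Nr1d1. For Npas2, Cry1 and Nr1d2, PZH 1 was neither the highest nor the lowest of its group.

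Per3 and Cry2 rose and fell together over the controls (r = 0.96, exact permutation p = 0.0083; rho = 0.94, exact permutation p = 0.017; n = 6; r = 0.80 without the farthest 2). Per2 and Cry2 did so as well (r = 0.94, exact permutation p = 0.0069, r = 0.78 without the farthest 2), as did Per3 and Nr1d2 (r = 0.93, exact permutation p = 0.0069, r = 0.81 without the farthest 2). Npas2 and Per3 ran opposite to each other (r = -0.92, exact permutation p = 0.0042, r = -0.83 without the farthest 2). Control 6 lay inside the range of the PZH mice for Arntl, Clock, Npas2, Per2 and Cry2 and just below it for Nr1d2. It lay outside that range for Per1, at 10.5 FPKM the farthest of all controls, and for Per3, Cry1 and Nr1d1, at 2.09, 4.26 and 9.28 FPKM. In the PZH mice the pairs with the lowest p were others, and the difference between the groups was not tested. Cry2 and Nr1d1 rose and fell together there (r = 0.86, exact permutation p = 0.018, r = 0.82 without the farthest 2). Clock and Per3 ran opposite to each other (r = -0.89, exact permutation p = 0.019, r = -0.53 without the farthest 2). Per1 and Nr1d1 followed each other (r = 0.86, exact permutation p = 0.0083; rho = 0.89, exact permutation p = 0.033; n = 6; r = 0.73 without the farthest 2), as did Arntl and Clock (r = 0.91, exact permutation p = 0.018; rho = 0.94, exact permutation p = 0.017; n = 6; r = 0.78 without the farthest 2). For Per1 and Per3 with PZH r was 0.83 (exact permutation p = 0.043, rho = 0.60 with exact permutation p = 0.242, n = 6). Without the 2 mice farthest from the Per1 median r was -0.06, over too few mice to show what the relation rests on.

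**Figure D2:**
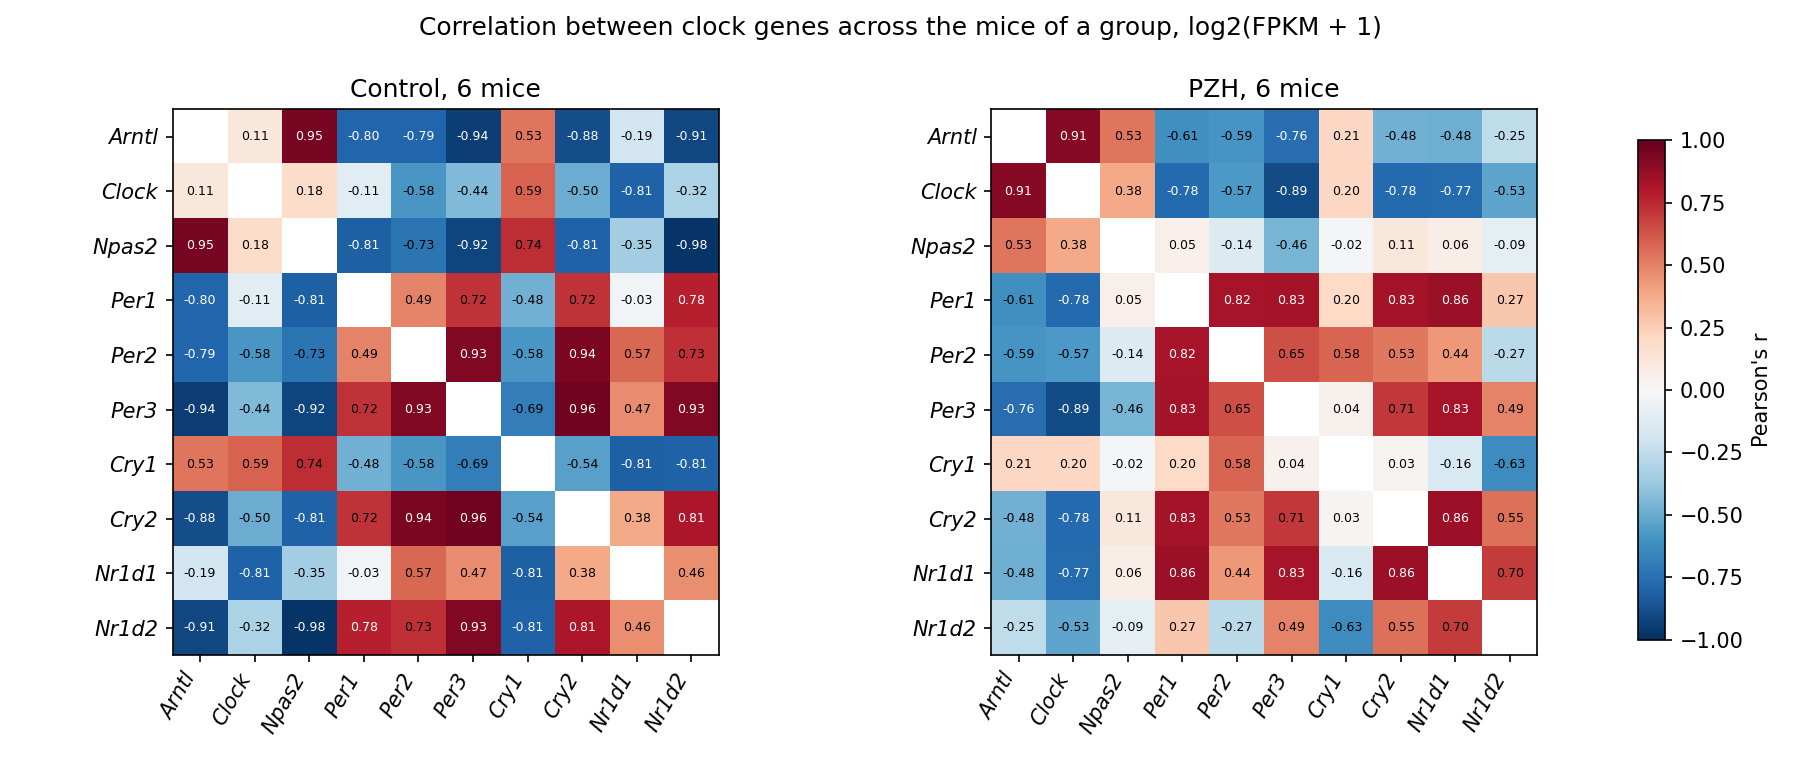
Pearson's r between the clock genes on log2(FPKM + 1) across the 6 control mice (left) and across the 6 PZH mice (right), with red for positive and blue for negative values. Npas2 and Nr1d2, the strongest of the 45 control pairs, reach -0.98 in controls and stand at -0.09 with PZH, and the difference was not tested. Npas2 ran from 0.213 to 0.552 FPKM in the PZH mice, a narrower range than the 0.253 to 2.04 FPKM of the controls.

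The clock outputs, genes driven by the clock that carry its rhythm onward, held the largest difference of the lists around the clock. Of 6 such genes, 4 were higher with PZH and 1 was lower (12.7% and 32.1% of all genes), with a median of 0.67 on the log2 scale, where the median of all genes was -0.11. Dbp, which encodes a D-box activator driven by ARNTL and CLOCK, ran from 11.8 to 26.1 FPKM in the PZH mice (median 18.9) and from 0.470 to 3.57 FPKM in the control mice (median 2.18). The groups lay far apart, with Control 1 the lowest of the controls as it was for Per3, and Dbp rose by 2.73 (SE 0.28, limma adjusted p = 2.2e-05). Its relatives Tef and Hlf, which encode activators of the same D-box sequence, rose by 1.49 (SE 0.27, limma adjusted p = 0.00069) and 0.72 (SE 0.14, limma adjusted p = 0.00097). Nfil3, which encodes the repressor that binds the D-box, ran from 4.09 to 6.84 FPKM in the PZH mice (median 5.44) and from 8.34 to 18.5 FPKM in the control mice (median 12.6). Its groups did not overlap, and Nfil3 fell by 1.09 (SE 0.18, limma adjusted p = 0.00039). Wee1, a kinase gene that delays mitosis and is driven by the clock, rose by 0.61 (SE 0.12, limma adjusted p = 0.0015), while Noct, a rhythmic gene of NADP metabolism, had a difference of -0.40 that did not pass (limma adjusted p = 0.242).

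Of 5 loop partners, which act on the core genes or their proteins, 2 were higher and 1 was lower, beside 12.7% and 32.1% of all genes. Rora, a nuclear receptor gene whose protein activates Arntl at the sites where NR1D1 and NR1D2 repress it, ran from 11.0 to 13.0 FPKM in the PZH mice (median 12.7) and from 17.6 to 25.8 FPKM in the control mice (median 20.8). Its groups did not overlap, and Rora fell by 0.71 (SE 0.08, limma adjusted p = 4.9e-05). Ciart, a repressor of the activating pair, rose by 0.99 (SE 0.21, limma adjusted p = 0.0022). Bhlhe41 (DEC2), an E-box repressor, rose by 0.23 (limma adjusted p = 0.029) from a mean of 0.230 to 0.436 FPKM. At this low level the difference moved with the scale, to 0.75 with a pseudocount of 0.1 and 0.44 with equal sums on the TPM scale, and it did not pass without Control 1 (0.19, adjusted p = 0.064), Control 6 (0.21, 0.057), PZH 3 (0.22, 0.053), PZH 4 (0.20, 0.066) or PZH 5 (0.21, 0.060) in limma. Its relative Bhlhe40 had a difference of -0.21 that did not pass (limma adjusted p = 0.402).

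Of 7 genes of clock protein turnover, 1 was higher and 1 was lower, where 12.7% of all genes were higher and 32.1% lower. Usp2, a deubiquitinase gene with a strong daily rhythm in liver, ran from 3.13 to 9.32 FPKM in the PZH mice (median 7.25) and from 0.028 to 2.06 FPKM in the control mice (median 0.820). Its groups did not overlap, with PZH 1 and Control 6 nearest to each other, and Usp2 rose by 2.05 (SE 0.26, limma adjusted p = 6.7e-05), or by 3.14 with a pseudocount of 0.1. Fbxw11, which encodes a ubiquitin ligase subunit that marks PER proteins for destruction, fell by 0.45 (SE 0.08, limma adjusted p = 0.00053), and by 0.27 under median-ratio scaling. Btrc, its close relative, had a difference of -0.07 (limma adjusted p = 0.608) that was 0.067 under median-ratio scaling. Csnk1e, a kinase gene whose protein phosphorylates PER proteins, had a difference of -0.23 that did not pass (limma adjusted p = 0.089) and that passed without Control 1 (-0.28, limma adjusted p = 0.037, range over all alternatives 0.017 to 0.457). Csnk1d, of the same list, had a difference of -0.23 that did not pass (limma adjusted p = 0.065). It passed without Control 1 (-0.27, limma adjusted p = 0.044) and without PZH 5 (-0.27, limma adjusted p = 0.038).

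Of 8 cofactors, 1 was higher and none was lower, against the same 12.7% and 32.1% of all genes. Without PZH 2, Ncor1 (-0.27, limma adjusted p = 0.043), Crebbp (-0.30, limma adjusted p = 0.043) and Ep300 (-0.30, limma adjusted p = 0.045) were called lower. In that fit 4624 of 14188 genes were lower. Ppargc1a, a coactivator gene of energy metabolism that also acts with RORA, rose by 0.39 (SE 0.13, limma adjusted p = 0.030). Leaving out any of 7 single mice ended this call, Control 1, Control 2, Control 3, Control 6, PZH 3, PZH 4 and PZH 6, with differences from 0.33 to 0.38 and limma adjusted p from 0.050 to 0.067. Hdac3, the deacetylase gene through which NR1D1 represses, and Kdm5a, a histone demethylase gene, were the least changed, with 0.06 (limma adjusted p = 0.517) and -0.17 (limma adjusted p = 0.062) in the values as deposited. Kdm5a passed without Control 2 (-0.21, limma adjusted p = 0.021) and without PZH 5 (-0.20, limma adjusted p = 0.029). With all mice it passed when limma was run with no variance moderation (-0.17, adjusted p = 0.043). Under median-ratio scaling Hdac3 was called higher (0.23, limma adjusted p = 0.016), and so was Nampt, an enzyme gene of NAD synthesis (0.49, limma adjusted p = 0.010), for 3 cofactors in all, where 19.8% of all genes were higher, while Kdm5a stood at -0.00064 (limma adjusted p = 0.996). Nampt also passed without Control 4 (0.37, limma adjusted p = 0.040). Over all alternatives the limma adjusted p ran from 0.016 to 0.888 for Hdac3 and from 0.010 to 0.160 for Nampt.

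Of 7 genes that respond to systemic cues such as glucocorticoids and temperature, which can set the liver clock, 4 were lower and none was higher, where 32.1% of all genes were lower. Sgk1, a kinase gene induced by glucocorticoids, ran from 14.5 to 21.9 FPKM in the PZH mice (median 17.3) and from 22.6 to 39.4 FPKM in the control mice (median 28.8). The groups did not overlap, and Sgk1 fell by 0.70 (SE 0.14, limma adjusted p = 0.0012). Fkbp5, another glucocorticoid target, fell by 0.78 (SE 0.25, limma adjusted p = 0.023), with PZH 1 at 3.03 FPKM, and did not pass without PZH 4 (-0.72, limma adjusted p = 0.050) or under median-ratio scaling (-0.60, limma adjusted p = 0.059). Hsf1, the heat shock factor gene, fell by 0.54 (SE 0.12, limma adjusted p = 0.0036). Rbm3, a cold-induced RNA-binding protein gene, also fell by 0.54 (SE 0.17, limma adjusted p = 0.020), which did not hold under median-ratio scaling (-0.36, limma adjusted p = 0.137). The glucocorticoid receptor gene Nr3c1 and the glucocorticoid target Tsc22d3 were the least changed, with 0.11 (limma adjusted p = 0.415) and 0.14 (limma adjusted p = 0.571). Cirbp, another cold-induced gene, was called higher under median-ratio scaling alone (0.33, limma adjusted p = 0.029, highest over all alternatives 0.432), which made the count of this list 2 lower and 1 higher there, where 19.3% of all genes were lower and 19.8% higher.

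**Figure D3:**
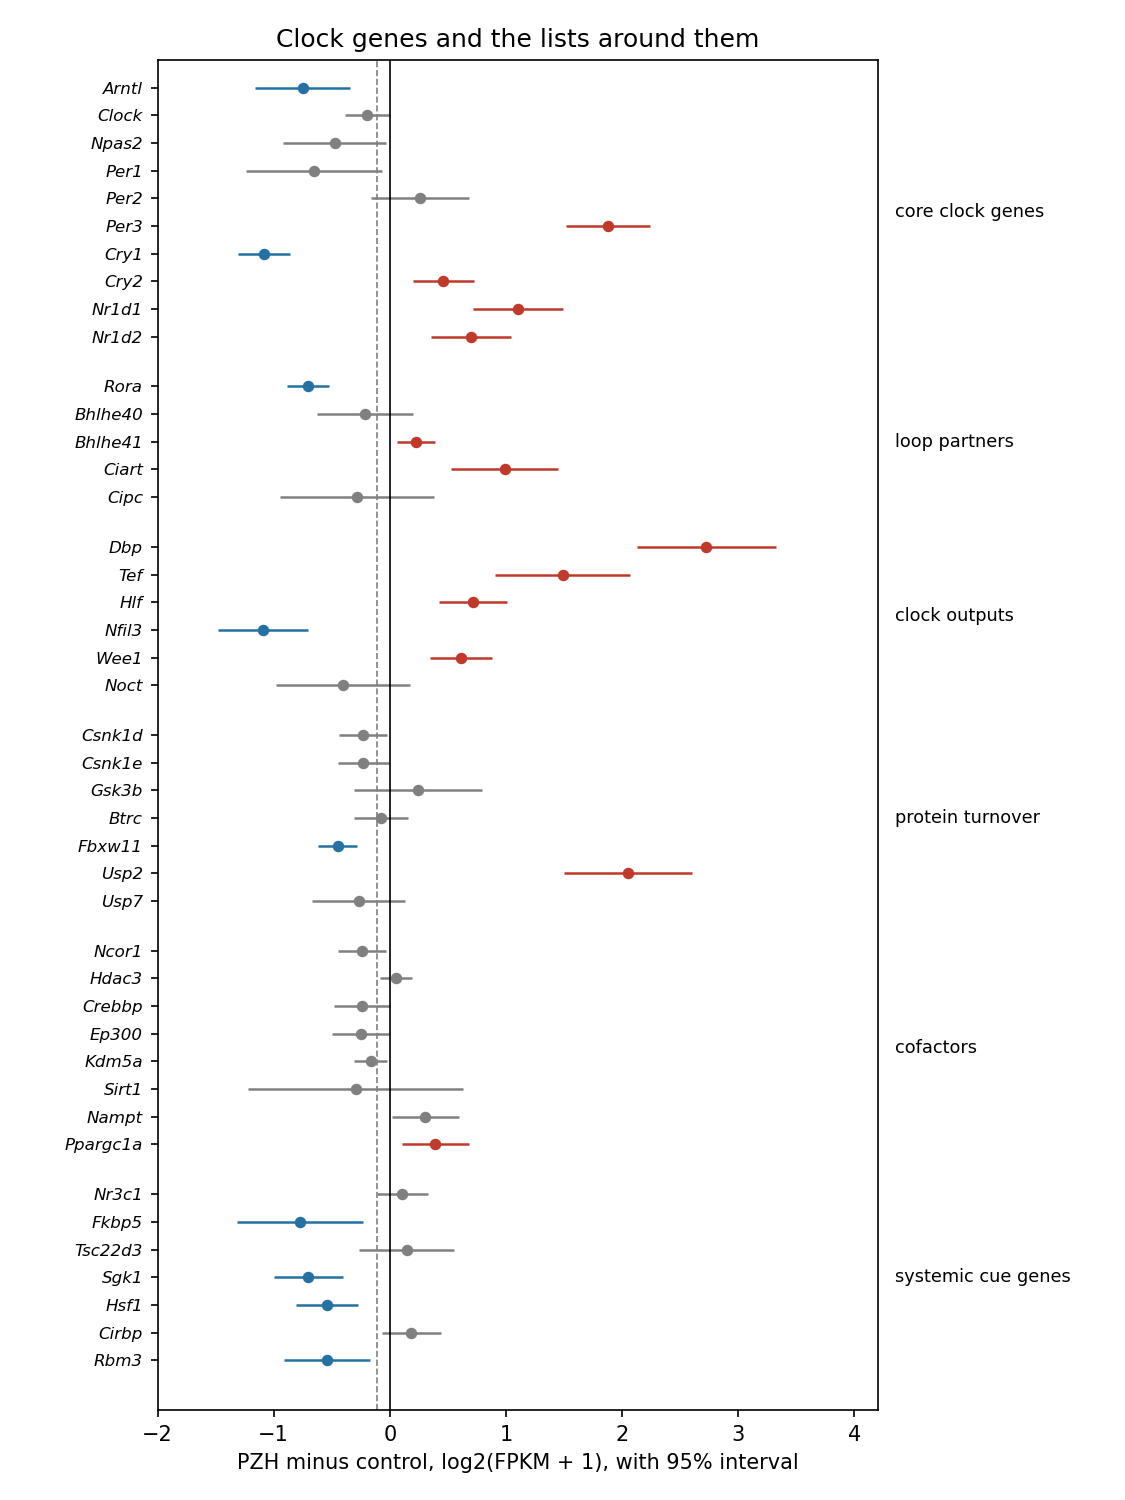
PZH minus control on log2(FPKM + 1) with its 95% interval for the 10 clock genes and 33 genes of 5 lists around the clock, coloured where the limma adjusted p is below 0.05, red for higher and blue for lower with PZH. The solid line is 0 and the dashed line the median of all genes, -0.11; Dbp lies farthest to the right, at 2.73.

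Over the 33 genes of these lists, 8 were higher, 7 were lower and 18 did not pass, where 12.7% of all genes were higher and 32.1% lower, and their median difference was -0.21. With median-ratio factors 11 were higher and 5 were lower, where 19.8% and 19.3% of all genes were. The lists of cell type markers bear on what was in the tissue. All 7 hepatocyte markers were listed, with Alb the most abundant at a mean of 31248 FPKM. Their summed FPKM was 48816 ± 6648 (SD, n = 6) with PZH and 31254 ± 4929 (SD, n = 6) in controls, and it ran from 42100 to 58602 and from 23702 to 37577. The sums did not overlap, 4 of the 7 genes were higher (Alb, Ttr, Cps1 and Cyp2e1) and 1 was lower (Hnf4a), while Apoa1 and Serpina1a did not pass. Alb, at a mean of 38437 FPKM with PZH and 24059 in controls, was the largest part of both sums and of their difference. Cyp2e1, the enzyme gene that activates CCl4, rose by 2.24 (SE 0.22, limma adjusted p = 1.7e-05).

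The 4 cholangiocyte markers summed to 6.70 ± 0.920 FPKM (SD, n = 6) with PZH and 14.5 ± 2.53 FPKM (SD, n = 6) in controls. Sox9, the most abundant over all 12 mice, was the only one called and fell by 1.64 (SE 0.11, limma adjusted p = 5.2e-06), from a mean of 10.7 to 2.73 FPKM. The others did not pass, with means of 2.88 FPKM with PZH and 3.07 in controls for Krt19, 0.901 and 0.567 for Epcam and 0.197 and 0.230 for Krt7, so that the difference of the sums was that of Sox9, and Epcam was listed at 0 in at least 1 mouse. Counts of other markers stand beside 12.7% of all genes higher and 32.1% lower. Of 9 macrophage markers 2 were higher (Clec4f and Vsig4) and 3 were lower (Marco, Cd68 and Itgam), with sums of 203 ± 32.8 and 217 ± 24.6 FPKM (SD, n = 6 each) and Cd5l the most abundant. Of 6 stellate and myofibroblast markers Col3a1 was higher and Des and Acta2 were lower, with sums of 289 ± 23.5 and 259 ± 38.1 FPKM (SD, n = 6 each) and Dcn the most abundant. Of 5 endothelial markers Pecam1 was lower, with sums of 81.2 ± 7.68 and 84.9 ± 6.09 FPKM (SD, n = 6 each) and Clec4g the most abundant.

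None of 5 neutrophil or 5 lymphocyte markers passed in limma after adjustment. The neutrophil sum was 138 FPKM in PZH 3, mostly S100a8, and ran from 11.8 to 21.2 FPKM in the other PZH mice and from 15.2 to 57.2 FPKM in the controls, with Ly6g listed at 0 in at least 1 mouse. The lymphocyte sum was 3.12 ± 0.686 FPKM with PZH and 3.25 ± 0.739 FPKM in controls (SD, n = 6 each), with Cd79a the most abundant. The part of these marker differences in the clock gene differences was not tested.

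The promoters of the clock genes were searched for the short sequences that clock factors are known to bind. RefSeq promoters on GRCm38.p6, each 250 bases before to 50 after a start site, were given for 9 of the 10 clock genes, all but Per2, as 13 of 32851 entries. Both strands were searched for the E-box CACGTG, held by 7.15% of all these promoters, the E-prime box CACGTT (4.68%), the D-box TTATGTAA or TTACGTAA (1.06%) and the ROR/REV-ERB element TAGGTCA or TGGGTCA (6.45%). The E-box was found in Cry1 and Per1, the E-prime box in Cry1, Cry2 and Nr1d1, the D-box in Per3 and the ROR/REV-ERB element in Arntl. No match overlapped another, and a match is a description of letters, not a site shown to be used.

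The stretches with the matches are shown for 3 genes whose levels did not overlap between the groups and for Arntl, 5′ to 3′ on the strand of the gene, with the matched letters in capitals. AACGTG is the E-prime box CACGTT read from the other strand. The Per3 stretch (chr4:151044796-151044890, minus strand) holds 2 D-boxes that begin at -205 and -158 from the start site. The Cry1 stretch (chr10:85185089-85185153, minus strand) holds an E-prime box at -79 and an E-box at -60, the Nr1d1 stretch (chr11:98775380-98775425, minus strand) an E-prime box at -28, and the Arntl stretch (chr7:113207531-113207557, plus strand) a ROR/REV-ERB element at 31 bases into the transcript.
Per3: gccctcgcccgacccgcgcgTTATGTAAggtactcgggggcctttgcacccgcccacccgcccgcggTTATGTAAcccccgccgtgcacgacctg
Cry1: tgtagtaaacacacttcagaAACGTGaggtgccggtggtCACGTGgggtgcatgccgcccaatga
Nr1d1: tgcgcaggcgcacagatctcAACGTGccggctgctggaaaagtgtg
Arntl: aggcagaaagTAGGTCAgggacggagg

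Among the listed partners, Ciart held 3 E-boxes in 1 promoter entry, Tef held 1 E-box in each of 2 entries, and Nfil3 held a ROR/REV-ERB element at -12 on the other strand. Whether any of these sequences was bound in these livers was not measured.

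The genes whose levels ran most like Nr1d1 within both groups were picked by the mean of the Pearson's r over the 6 PZH and over the 6 control mice, among the 10939 genes other than clock genes with a mean FPKM of at least 1. They were Axin2, a Wnt pathway scaffold gene, at a mean r of 0.94, Abcc6, a transporter gene, at 0.94, Dyrk1b, a kinase gene, at 0.94, F2, the prothrombin gene, at 0.93, and Amacr, a racemase gene of bile acid and fatty acid metabolism, at 0.91. Of these, Axin2 (0.86), Abcc6 (0.74), Dyrk1b (0.65) and Amacr (0.96) were higher with PZH, with limma adjusted p from 3.5e-05 to 0.0051, and F2 (0.11) did not pass (limma adjusted p = 0.143). Among all genes tested, 12.7% were higher and 32.1% lower. The same for Arntl gave Acat2, a thiolase gene, at 0.93, Cyp2c70, a bile acid hydroxylase gene, at 0.92, Prom1, which encodes CD133, at 0.91, Rdh11, a retinol dehydrogenase gene, at 0.90, and Wdyhv1, an amidase gene, at 0.89. Of these, Acat2 (0.48, limma adjusted p = 0.015) and Cyp2c70 (1.17, limma adjusted p = 0.00017) were higher with PZH, beside 12.7% of all genes. None was lower, beside 32.1% of all genes. These r values are the highest of many and carry no test.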

How the data were processed

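The authors trimmed reads of 150 bases from strand-specific libraries with Trimmomatic, aligned them by HISAT2 2.1.0 to the GRCm38 genome, and ran StringTie 1.3.5 with Ensembl release 95. The authors deposited FPKM per protein-coding transcript and mouse, with no read counts. Gene values are sums over transcripts by GENCODE M21, which held 29876 of 29883. They were compared with limma 3.58.1 in R 4.3.3 on log2(FPKM + 1), with no filter on low values, and single genes also by two-sided exact permutation over all labellings of the mice. Sums, permutations and plots were made in Python 3.11.15 (scipy 1.17.1, pandas 2.3.3, matplotlib 3.10.9, numpy 2.4.6). The fit was tested on simulated data.

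The genes named were the 10 clock genes, every called gene and the 2 least changed of each list, and the 5 genes most like Nr1d1 and the 5 most like Arntl. Of the list genes, 2 are not reported here and enter no list count. Nampt, Cirbp, Thra, Ncor1, Crebbp, Ep300, Csnk1d, Usp7 and the called markers were named after their values were seen. The members and lists were chosen with earlier results of these data known. The smallest FPKM steps implied 26.8 to 42.8 M fragments per mouse, but only 4.88% to 6.06% of low values were whole multiples within 0.02, so no counting interval is given. Alternatives tried were median-ratio factors, equal sums on the TPM scale, the highest transcript only, genes with a mean FPKM of at least 1, a pseudocount of 0.1, a mean-variance trend, no variance moderation, the mouse number as a block, and fits without single mice. The lncRNA table was not used here.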

Additional observations from a re-analysis of the deposited data

Results flagged for a closer look

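Over the 43 clock and list genes, 3 of 86 groups held a mouse far from the other 5 by Dixon's criterion, and chance gives about 1 in 20 groups. Ncor1, a corepressor gene that acts with NR1D1, had groups that did not overlap, lower with PZH, as for 17.9% of all genes. The controls ran from 30.3 to 35.3 FPKM (exact two-sided permutation p = 0.0022). Its level was 19.5 FPKM in PZH 1, with the other PZH mice between 26.8 and 30.1 FPKM. Without that mouse its difference went from -0.24 to -0.16 on the log2 scale and passed (limma adjusted p = 0.044), as it also did without PZH 2 (-0.27, limma adjusted p = 0.043) and without PZH 5 (-0.28, limma adjusted p = 0.041), while median-ratio factors gave -0.056 (limma adjusted p = 0.604). Crebbp, a histone acetyltransferase gene, was at 5.42 FPKM in PZH 1, with the other PZH mice between 8.52 and 10.3 FPKM. Its difference went from -0.24 to -0.13 without PZH 1 (limma adjusted p = 0.092), and it passed without PZH 2 (-0.30, limma adjusted p = 0.043). Nr3c1, the glucocorticoid receptor gene, was at 13.4 FPKM in Control 5, with the other controls between 19.7 and 23.1 FPKM, and its difference went from 0.11 to 0.0095 without it.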

How the results depend on the processing

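Arntl, Per3, Cry1, Cry2, Nr1d1 and Nr1d2 kept their direction and their call under every alternative run, with differences from -0.92 to -0.60, 1.76 to 2.60, -1.47 to -0.95, 0.38 to 0.63, 1.02 to 1.28 and 0.58 to 0.88 on the log2 scale. Clock was called with the highest transcript only (-0.25), and with single mice left out it ran from -0.25 to -0.14, while median-ratio factors gave -0.010. With single mice left out Npas2 ran from -0.59 to -0.34 and Per1 from -0.79 to -0.47. Npas2 has no value at a mean FPKM of at least 1. With the highest transcript only Per1 turned to 0.26, and with median-ratio factors Btrc turned to 0.067, neither of them called in any direction there. Over the 10948 genes with a mean FPKM of at least 1, correlations of same-numbered mice ran from -0.08 to 0.09. On that measure 0 of 6 PZH mice were closest to their own number. This covers mostly genes outside the clock, and pairing by number within the clock genes alone was not tested. The block lowered the limma adjusted p of Clock, Per1, Per2 (0.297 to 0.097) and Cry2. It raised that of Arntl, Npas2, Per3, Cry1, Nr1d1 and Nr1d2. With the replicate block Clock (-0.19, adjusted p = 0.040) and Per1 (-0.65, adjusted p = 0.012) passed in limma, so that 4 clock genes were lower instead of 2. In that fit 4288 of 14188 genes were lower and 1694 higher. Of the protein turnover genes, Csnk1d (-0.23, adjusted p = 0.042), Csnk1e (-0.23, adjusted p = 0.017) and Usp7 (-0.27, adjusted p = 0.026) also passed in limma with that block.

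Median-ratio factors gave 2807 genes higher and 2739 lower, 349 and 210 by the 2-fold rule, 1 clock transcript lower instead of 2, and 3 correlated pairs in the PZH mice instead of 6. The 2-fold rule gave 506 higher and 811 lower with a pseudocount of 0.1, 331 and 653 with equal sums on the TPM scale, and 215 and 355 in the values as reported. Equal sums on that scale also raised all values against the pseudocount of 1, so the effects of equal sums and of a smaller pseudocount were not separated. The causes were not tested. With no read counts, the depth behind low genes such as Npas2 cannot be given.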
